A study of Mus musculus with 18 samples.

Results

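The genes described here mark the main neurons of the cerebellar cortex. The list holds 10 genes, 5 of granule cells (Cbln1, Cbln3, Neurod1, Zic1 and Zic2) and 5 of Purkinje cells (Pcp2, Car8, Calb1, Ppp1r17 and Itpr1). Their probe sets were chosen by annotation alone, as those paired with exactly 1 gene symbol among the 10. This gave 21 of 45037 tested probe sets, covering 9 of 18193 genes, with 10 probe sets of 5 granule cell genes and 11 of 4 Purkinje cell genes. Itpr1, the inositol trisphosphate receptor of Purkinje cells, had no probe set with Itpr1 as its only symbol in the annotation used. It is therefore not analysed here, and whether the array measures it was not examined.

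Granule cells are the small, numerous excitatory neurons of the cerebellum, and their axons, the parallel fibres, contact the dendrites of Purkinje cells. Purkinje cells are large inhibitory neurons that carry the only output of the cerebellar cortex. Granule cells secrete cerebellins, which help to form and hold the synapse between parallel fibre and Purkinje cell, while Purkinje cells are known for their calcium stores, calcium buffers and cyclic GMP signalling. Orexin neurons, whose regulatory sequence drove the tagged protein in these mice, have their cell bodies in the lateral hypothalamus and not in the cerebellum. Several of the genes are not restricted to the cerebellum. Calb1 is known in many forebrain neurons, Neurod1 in the dentate gyrus, Zic1 and Zic2 in the septum and medial forebrain, and Ppp1r17 in some hypothalamic neurons.

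The 18 arrays all came from mice with the transgene, on a mixed C57BL/6J X DBA/2J genetic background and aged 11 and 14 weeks, with the ages not assigned to single arrays. On a bacterial artificial chromosome, the orexin coding sequence had been replaced by a rat poly(A)-binding protein cDNA with a flag tag, followed by an internal ribosome entry site and eGFP. The 9 IP arrays held RNA recovered with anti-flag beads from brain perfused with formaldehyde, and the 9 WB arrays held whole brain total RNA. Both kinds of RNA were amplified from 5 ng. The mice of both groups carried the transgene, and a pull-down from mice without it was not analysed here. Whether the arrays stand for separate animals is not in the labels, and the p-values speak only to the scatter of these arrays, part of which may be technical, and the number of arrays limits the precision.

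The 2 groups differed as a whole. The correlation of an array with the others of its group had a median of 0.825 to 0.863 in IP and of 0.934 to 0.944 in WB (Pearson's r over probe sets). The 3′ minus 5′ difference of the Gapdh control probe sets was 3.33 to 5.45 in IP and 1.33 to 1.78 in WB on the log2 scale, without overlap. The actin control probe sets did not show this gap. Their difference was -1.31 to 0.00088 in IP (median -0.22) and -0.23 to 0.03 in WB (median -0.20), with overlap. The median intensity was 153 to 203 in IP and 221 to 267 in WB. IP replicates 2, 5, 6 and 8 had brighter hybridization controls (at least 14.30 on the log2 scale) than the 5 other IP arrays (at most 13.74). The part of these measures in the results below was not tested. Hcrt, the orexin gene that defines the targeted cells, read 73.8, 308 and 491 in IP and 156, 248 and 388 in WB. Its difference of 0.21 (95% interval -0.37 to 0.80, adjusted p = 0.568) did not pass the test, so an excess of orexin RNA in the immunoprecipitate was not detected on these arrays.

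Counted by probe set or at brightest probe sets, granule cell genes were mostly higher in the immunoprecipitate than in whole brain. The Purkinje cell genes were mixed on these counts. The brightest probe set of a gene is that with the highest mean over all 18 arrays, so the IP values enter the choice. Of the 21 probe sets, 9 were higher in IP, 4 were lower and 8 did not pass the test (limma, Benjamini-Hochberg adjusted p under 0.05 over all probe sets). Higher calls made up 42.9% of these probe sets against 14.2% of all tested probe sets, and lower calls 19.0% against 30.8%, so that calls in either direction were 13 of 21 against 45% of all. All 21 had means above the dim trpn control probe sets, and among all probe sets above them 15.3% were higher and 34.4% lower. The median difference was 0.46 for these probe sets and -0.23 for all, on the log2(intensity + 16) scale on which all differences and folds are given, and a fold is therefore an understatement where a probe set is dim. On granule cell genes 6 of 10 probe sets were higher and 1 lower, and on Purkinje cell genes 3 of 11 were higher and 3 lower. With each gene taken at its brightest probe set, 5 of 9 genes were higher (Cbln1, Cbln3, Neurod1, Zic1 and Ppp1r17), 1 was lower (Pcp2) and 3 did not pass (Zic2, Car8 and Calb1), where 21.7% of all 18193 genes were higher and 21.7% lower. As means over probe sets 6 genes were higher and 1 lower, where 12.5% of all genes were higher and 29% lower. Car8 (0.51, limma adjusted p = 0.00172) and Calb1 (0.52, limma adjusted p = 0.00174) were then higher, and Cbln1 did not pass (-0.25). All 9 IP arrays lay above all 9 WB arrays for 5 probe sets and below them for 4, against 5.22% and 10.3% of all probe sets. A level in bulk RNA does not tell fewer cells of a type from less RNA per cell, and in the immunoprecipitate it also depends on how much of each message was captured.

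**Figure D1:**
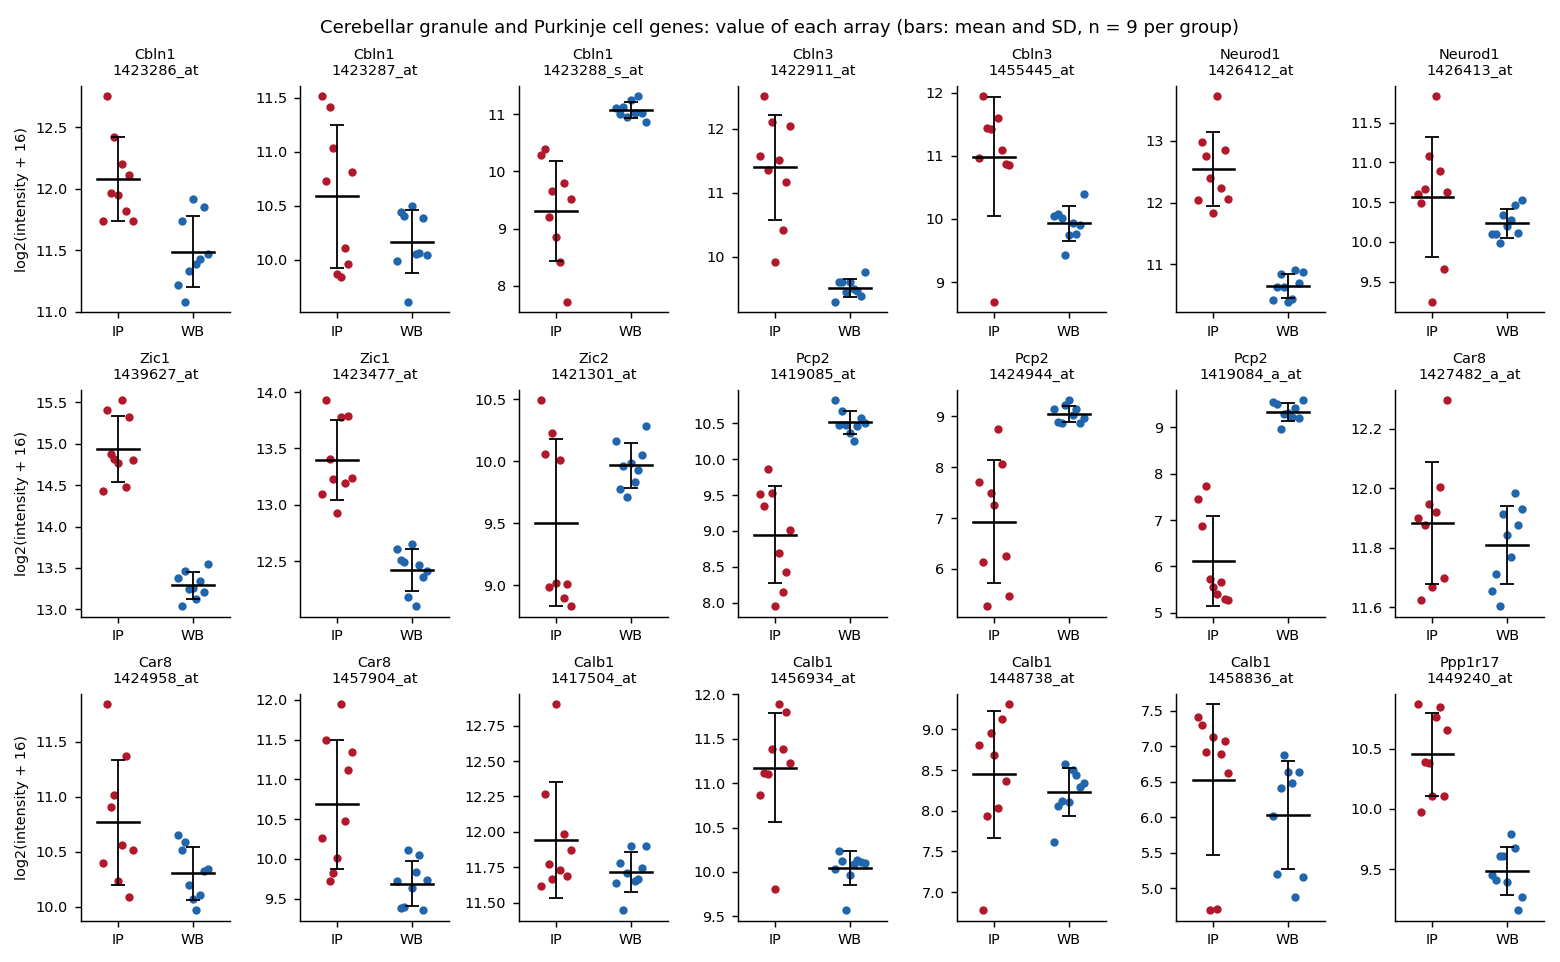
Log2(intensity + 16) of each array (points, n = 9 per group) for the 21 probe sets, with the group mean and SD as black bars; each panel has its own vertical axis. The 9 IP arrays lie above the 9 WB arrays for 5 probe sets, among them both of Zic1, and below them for all 3 of Pcp2 and 1423288_s_at of Cbln1.

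**Figure D2:**
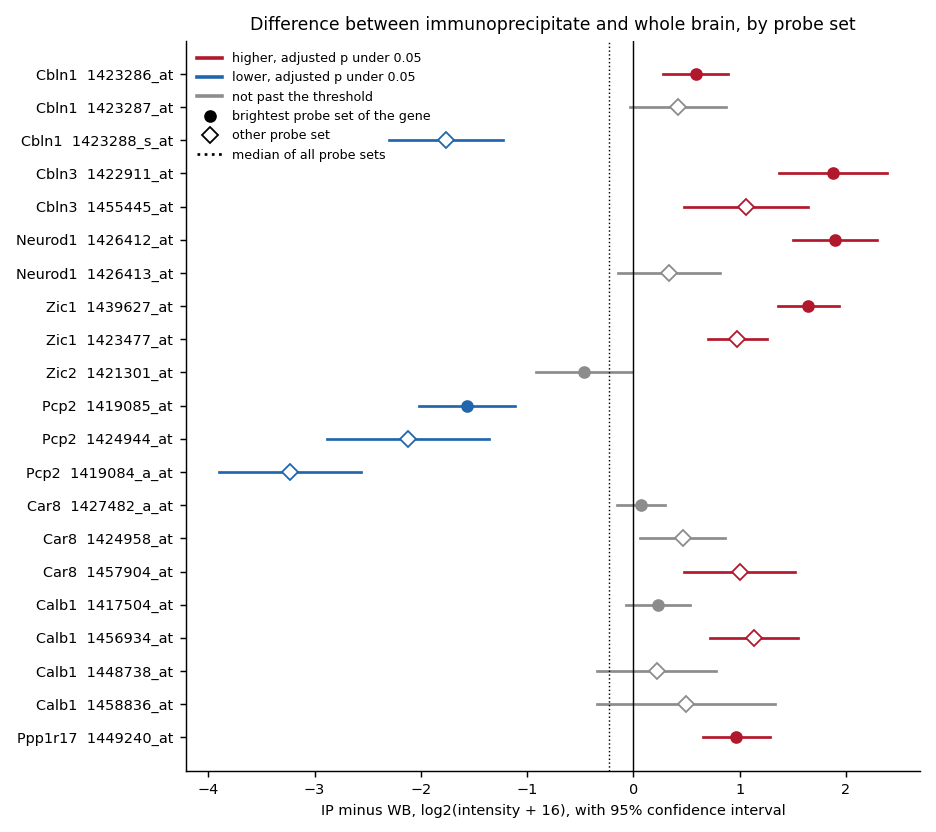
Difference between IP and WB (log2 scale) with its 95% confidence interval for each probe set, filled for the brightest probe set of a gene and open for the others. Red marks the 9 higher calls, blue the 4 lower calls and grey the 8 that did not pass the threshold, and the dotted line marks the median of all probe sets at -0.23.

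Among the secreted ligands, Cbln3 was higher on both of its probe sets. Cbln3 is a cerebellin that granule cells secrete together with Cbln1. Its brighter probe set, 1422911_at, read 952, 2901 and 5824 in IP (lowest, median and highest intensity of 9 arrays) and 613, 708 and 851 in WB. All IP arrays were above all WB arrays, and the IP arrays ranged over 6.12-fold where those of WB ranged over 1.39-fold. The rise was 3.68-fold (difference 1.88, SE 0.25, limma adjusted p = 8.81e-07). The other probe set, 1455445_at, read 395, 2164 and 3933 in IP and 673, 969 and 1338 in WB. There 8 of 9 IP arrays were above every WB array and 1, replicate 5, was below every one. It was 2.08-fold higher (difference 1.06, SE 0.28, adjusted p = 0.00336). Scaled to the spiked-in hybridization controls (called spike-in scaling from here on), it did not pass (0.11).

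Cbln1, the founding cerebellin and an organiser of parallel fibre synapses, gave calls in both directions. Probe set 1423286_at read 3394, 3979 and 6889 in IP and 2146, 2733 and 3841 in WB. The 2 groups overlapped, with 6 of 9 IP arrays above the brightest WB array, and the difference was 0.59 (higher in IP, SE 0.15, adjusted p = 0.00214). It did not pass with quantile normalization (0.18) and turned to -0.37 with spike-in scaling (adjusted p = 0.0774). Probe set 1423287_at read 900.2, 1679 and 2916 in IP and 765, 1057 and 1429 in WB, and its difference of 0.42 did not pass (adjusted p = 0.125). It did pass without IP replicates 2, 5, 6 and 8 (0.81, adjusted p = 0.00249) and with median centring (0.85). Probe set 1423288_s_at read 194, 717 and 1331 in IP and 1859.6, 2071 and 2542 in WB. Here every IP array was below every WB array, and the level was 3.39-fold lower (difference -1.76, SE 0.26, adjusted p = 5.19e-06). Probe sets with the ending _s_at can match more than 1 transcript. As a mean over its 3 probe sets Cbln1 had a difference of -0.25 (adjusted p = 0.225). Of the 7 member genes with more than 1 probe set, Cbln1 was the only 1 called in both directions, as were 22% of the 9010 such genes on the array.

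Neurod1, a basic helix-loop-helix factor needed for granule cell differentiation, rose on 1 of its 2 probe sets. Probe set 1426412_at read 3639.7, 5357 and 13561 in IP and 1323, 1575 and 1904 in WB. No IP array came near the WB range, and the rise was 3.72-fold (difference 1.89, SE 0.19, adjusted p = 1.42e-08). The second probe set, 1426413_at, was made from the same accession in the annotation and did not pass. It read 590.0, 1569 and 3638 in IP and 994, 1159 and 1461 in WB. There 6 IP arrays were above every WB array and 2 were below, and the difference was 0.33 (95% interval -0.15 to 0.81, adjusted p = 0.256). It passed when IP replicate 5 was left out (0.50, adjusted p = 0.0435), and without the 4 IP arrays with bright hybridization controls (0.54, adjusted p = 0.00155). Without IP replicate 6 the difference was 0.18 (adjusted p = 0.510).

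Zic1 and Zic2 are zinc finger transcription factors of granule cell precursors, kept on in mature granule cells. Zic1 probe set 1439627_at read 22111, 28886 and 47145 in IP and 8395, 9808 and 11981 in WB. It was 3.13-fold higher (difference 1.65, SE 0.14, adjusted p = 7.95e-10). Its second probe set, 1423477_at, read 7773, 9615 and 15577 in IP and 4369, 5638 and 6421 in WB, a rise of 1.97-fold (difference 0.98, SE 0.13, adjusted p = 1.85e-06). On both probe sets the 9 IP arrays lay above the 9 WB arrays, and the 3 brightest IP arrays were replicates 2, 6 and 8. The difference of 1439627_at was 0.56 with quantile normalization and 0.68 with spike-in scaling, and 1423477_at did not pass under either (0.18 and 0.01). Zic2, measured by 1421301_at alone, went the other way without passing. It read 441, 504 and 1426 in IP and 823, 981 and 1235 in WB, with 5 IP arrays below every WB array, 1 above and 3 between. The difference was -0.46 (SE 0.22, adjusted p = 0.0889). It passed without IP replicate 1 (-0.59, adjusted p = 0.0222), without IP replicate 4 (-0.55, adjusted p = 0.0424) and with spike-in scaling (-1.41).

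Pcp2, also called L7, is a regulator of inhibitory G proteins known from Purkinje cells and retinal bipolar cells. It was lower in IP on all 3 of its probe sets, and in each case the 9 IP arrays lay below the 9 WB arrays. Probe set 1419085_at read 231, 503 and 918 in IP and 1205, 1416 and 1797 in WB, 2.97-fold lower (difference -1.57, SE 0.22, adjusted p = 2.21e-06). Probe set 1424944_at read 22.4, 138 and 414 in IP and 450.2, 503 and 623 in WB, 4.35-fold lower (difference -2.12, SE 0.37, adjusted p = 4.42e-05). Its lowest 2 IP arrays were at or below the brightest of the dim trpn control probe sets (49.5), so the spread among IP arrays has only a lower bound there. Probe set 1419084_a_at read 22.6, 34.6 and 196 in IP and 487, 621 and 753 in WB, 9.40-fold lower (difference -3.23, SE 0.32, adjusted p = 1.17e-08). On this probe set IP replicates 1, 2 and 3 read 102 to 196 and the other 6 read 22.6 to 37.3, at or below the same limit. Its size therefore depends on the pseudocount, at -3.64 with a pseudocount of 1 and -2.51 with 64. The call of Pcp2 as lower was made on all 3 probe sets under each of the 4 scalings tried, with differences from -4.02 to -1.14.

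Ppp1r17, or G-substrate, is phosphorylated by the cyclic GMP-dependent kinase and then inhibits protein phosphatases. Its single probe set, 1449240_at, read 987, 1323 and 1852 in IP and 555, 686 and 869 in WB. All IP arrays were above all WB arrays, with a rise of 1.96-fold (difference 0.97, SE 0.15, adjusted p = 1.22e-05). With spike-in scaling the difference was 0.02 and did not pass.

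Car8 is a carbonic anhydrase-related protein without catalytic activity that binds the inositol trisphosphate receptor and lowers its affinity for its ligand. Its brightest probe set, 1427482_a_at, read 3144, 3806 and 5010.3 in IP and 3096, 3654 and 4038 in WB. The groups overlapped almost fully, and the difference of 0.07 (SE 0.11, adjusted p = 0.621) had a 95% interval from -0.15 to 0.30. That interval belongs to the scaling as deposited, and the difference was -0.38 with quantile normalization (adjusted p = 0.00730) and -0.89 with spike-in scaling (adjusted p = 0.00112), and 0.50 with median centring. Probe set 1424958_at read 1073, 1492 and 3646 in IP and 985, 1267 and 1589.8 in WB, just short of the threshold (0.46, SE 0.19, adjusted p = 0.0547). It passed in 6 of 18 fits that left out 1 array, in each of which IP replicate 1, 5, 6, 8 or 9 or WB replicate 1 was missing, with differences from 0.49 to 0.55. It also passed with quantile normalization (0.47, limma adjusted p = 0.0333), median centring (0.89), array weights (0.48) and the replicate block (0.46). The difference was 0.53 without IP replicates 2, 5, 6 and 8, which passed, and -0.49 with spike-in scaling, which did not. The third, 1457904_at, read 825, 1405 and 3923 in IP and 637, 829 and 1086 in WB, 2.00-fold higher (difference 1.00, SE 0.25, adjusted p = 0.00226). There 6 IP arrays were above every WB array and 3 were within the WB range, and without the 4 IP arrays with bright hybridization controls the difference was 0.64. With spike-in scaling it did not pass (0.046, adjusted p = 0.884). As a mean over its 3 probe sets Car8 was higher (0.51, limma adjusted p = 0.00172).

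Calb1, calbindin, is the cytosolic calcium buffer by which Purkinje cells are often stained. Of its 4 probe sets 1 was higher and 3 did not pass. The brightest, 1417504_at, read 3128, 3488 and 7628 in IP and 2772, 3326 and 3807 in WB, with a difference of 0.23 (95% interval -0.07 to 0.53, adjusted p = 0.208). The highest IP value came from replicate 5, far above the second at 4906, and without that array the difference was 0.11 (adjusted p = 0.446). Probe set 1456934_at read 879, 2383 and 3771 in IP and 742, 1081 and 1188 in WB. On it 8 of 9 IP arrays were above every WB array, replicate 5 was within the WB range, and the level was 2.19-fold higher (difference 1.13, SE 0.20, adjusted p = 4.62e-05). With spike-in scaling this call was lost (0.18, adjusted p = 0.553). Probe set 1448738_at read 93.5, 396 and 617 in IP and 179.9, 296 and 366 in WB (difference 0.22, adjusted p = 0.548). The dimmest, 1458836_at, read 9.70, 105 and 154 in IP and 13.3, 68.8 and 102 in WB (difference 0.50, SE 0.41, adjusted p = 0.339), near the dim control probe sets. The difference of 1417504_at was -0.21 with quantile normalization and -0.73 with spike-in scaling (adjusted p = 0.00130). As a mean over its 4 probe sets Calb1 was higher (0.52, limma adjusted p = 0.00174).

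Because the probe sets of a gene so often differed, the log2 ratio of the brightest probe set to each other one was formed within each array, which a scaling factor does not move apart from the pseudocount. The ratio differed between IP and WB for 7 of 12 such pairs (exact two-sided permutation test over 48620 divisions of the arrays, Benjamini-Hochberg adjusted over 17 tests). For Cbln1 the ratio of 1423286_at to 1423288_s_at was 2.76 ± 0.91 in IP and 0.41 ± 0.31 in WB (mean ± SD, n = 9 each), an unequal change of 2.35 (exact permutation adjusted p = 8.74e-05). Neurod1 gave 1.97 ± 0.67 and 0.42 ± 0.22, an unequal change of 1.56 (exact permutation adjusted p = 8.74e-05). In both genes every IP ratio exceeded every WB ratio. The same held for Pcp2 between 1419085_at and 1419084_a_at (1.66) and for Zic1 between 1439627_at and 1423477_at (0.67), each with the same exact permutation adjusted p of 8.74e-05. The raw p behind these values, 4.11e-05, is the smallest that this test can give. The pair of Cbln3 differed by 0.82 (exact permutation adjusted p = 0.00388). For Car8 the ratio to 1457904_at moved by -0.93 (exact permutation adjusted p = 0.00388), and for Calb1 that to 1456934_at by -0.90 (exact permutation adjusted p = 0.0214). The other 5 pairs, 1 each of Cbln1, Pcp2 and Car8 and 2 of Calb1, did not pass. So for these 7 genes the size of the difference depends on the probe set read, and for Cbln1 the direction as well.

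**Figure D3:**
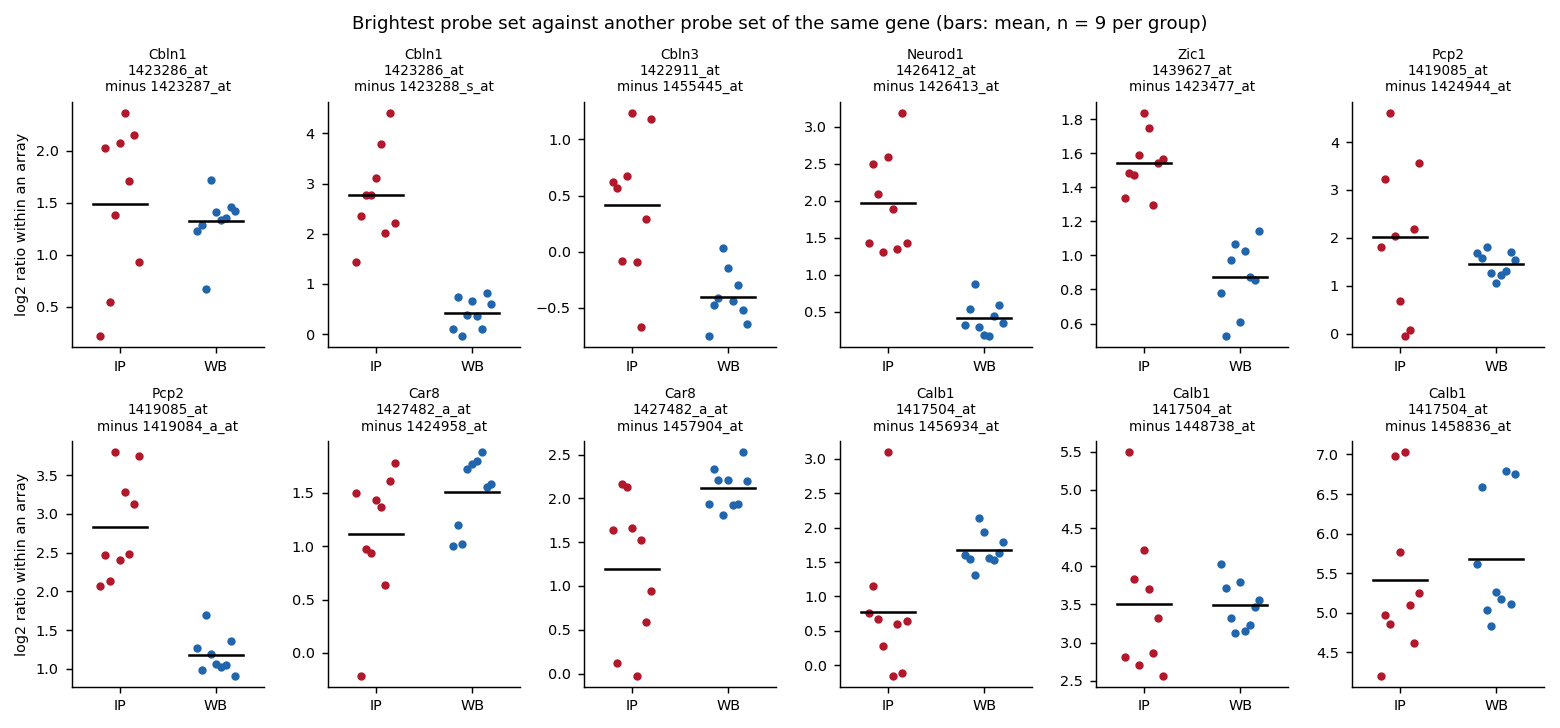
Log2 ratio of the brightest probe set of a gene to another of its probe sets within each array (points, n = 9 per group, bars at the mean); each panel has its own vertical axis. The IP ratios lie wholly above the WB ratios for 1 pair each of Cbln1, Neurod1, Zic1 and Pcp2.

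The same ratio between 2 genes, each at its brightest probe set, also differed between IP and WB for genes of one cell class. The ratio of Zic2 to Zic1 was -5.43 ± 0.74 in IP and -3.32 ± 0.13 in WB (difference -2.11, exact permutation adjusted p = 8.74e-05). Cbln3 exceeded Cbln1 by 1.29 in its change (exact permutation adjusted p = 0.000932), with 8 of 9 IP ratios above every WB ratio. That pair used 1422911_at of Cbln3, which was brighter than 1455445_at only through its IP values. The change of 1455445_at was smaller (1.06 against 1.88). Among Purkinje cell genes, the ratio of Calb1 to Pcp2 rose by 1.80 and that of Ppp1r17 to Pcp2 by 2.54. The ratio of Neurod1 to Pcp2, a granule cell gene against a Purkinje cell gene, rose by 3.46. In these last 3 pairs every IP ratio was above every WB ratio (exact permutation adjusted p = 8.74e-05 for each). All 5 gene pairs tested passed, and a ratio shows only that the change was unequal, not which gene of a pair changed. Because probe sets of 1 gene differed by up to 2.35, such a ratio cannot separate genes from probe sets.

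The calls depended on how the arrays were scaled. The median difference of all probe sets was -0.23 as deposited, 0.11 after quantile normalization, 0.20 after centring on the median and -1.05 after spike-in scaling, whose controls are added in equal amount to each array. The median of the 21 probe sets was 0.46, 0.47, 0.89 and -0.49 in the same order, above the median of all probe sets each time. Quantile normalization left 8 of the 21 probe sets higher and 5 lower. Median centring gave 15 and 4, and spike-in scaling 3 and 7. Over all probe sets, higher calls made up 24.1%, 28.4% and 3.15% in these 3 cases and lower calls 22.0%, 18.5% and 63.6%. The brightest probe sets of Cbln3, Neurod1 and Zic1 were higher under all 4 scalings. For Cbln3 the choice of 1422911_at rests on its IP values, because 1455445_at had the higher WB mean (9.93 against 9.52). The call of 1455445_at as higher was lost with spike-in scaling (0.11, limma adjusted p = 0.775).

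**Figure D4:**
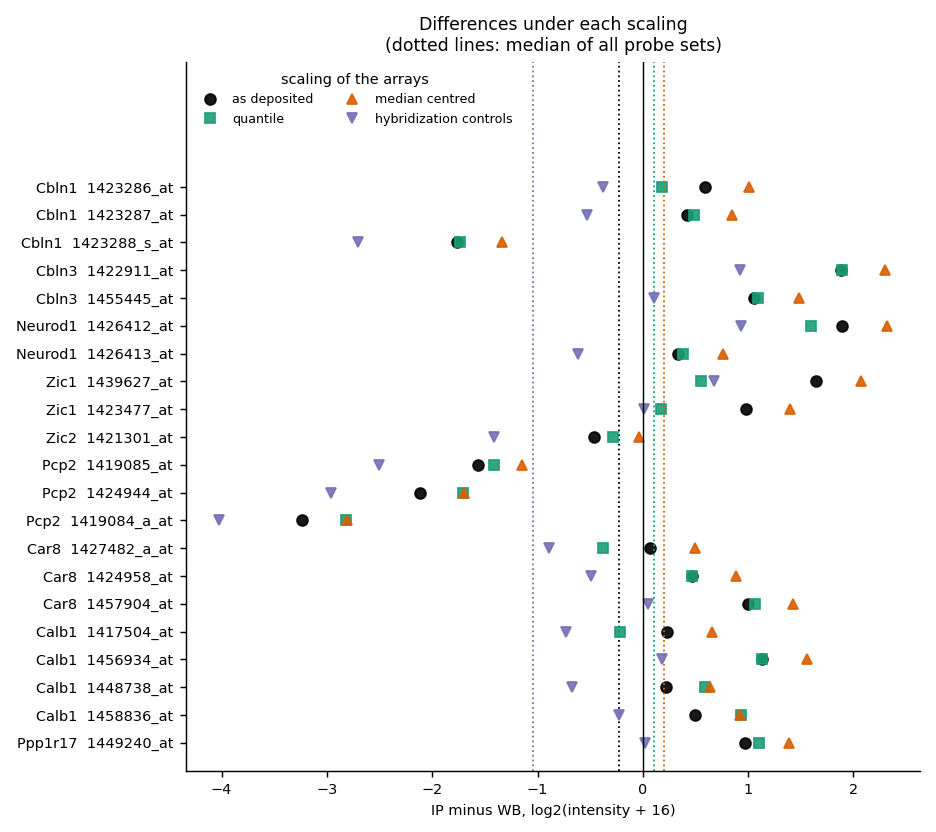
Difference between IP and WB (log2 scale) of each probe set under 4 scalings of the arrays, with the median of all probe sets under each as a dotted line of the same colour. Pcp2 and 1423288_s_at of Cbln1 lie left of 0 under each scaling, and 1422911_at of Cbln3, 1426412_at of Neurod1 and 1439627_at of Zic1 lie right of 0.

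The IP arrays varied more than the WB arrays on each of the 21 probe sets. The median SD over them was 0.67 in IP and 0.19 in WB, against 0.74 and 0.34 over all tested probe sets. The least variable in IP was 1427482_a_at of Car8 (SD 0.20) and the most variable 1424944_at of Pcp2 (SD 1.21). Replicate 5 was the lowest IP array on 7 of the 21 probe sets, 2 of Cbln3, 2 of Neurod1, and 1 each of Zic1, Pcp2 and Calb1, yet the highest on 1417504_at of Calb1. In WB the highest and lowest arrays differed by at most 2.03-fold on each probe set except 1458836_at of Calb1 (7.64-fold).

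Other genes of the same cells moved in both directions. Of 17 measured further granule cell genes 6 were higher and 2 lower, with a median of 0.06 against 0.00 for all genes at the brightest probe set. Over all genes 21.7% were higher and 21.7% lower. The granule cell counts were 4 and 8 with spike-in scaling, where 5.32% of all genes were higher and 55.7% lower. They were 3 and 4 as means over probe sets, where the shares of all genes were 12.5% and 29%. Grm4, a presynaptic glutamate receptor of parallel fibres, was 3.32-fold higher (adjusted p = 8.53e-08), and Grin2c, an NMDA receptor subunit of mature granule cells, 2.53-fold lower (adjusted p = 6.74e-07), each on its only probe set. Rbfox3, the neuronal splicing factor NeuN, was 4.18-fold higher at its brightest probe set and lower on its other 2, with a mean over the 3 of -0.72. Calb2, the calcium buffer calretinin, was 1.42-fold lower, which did not pass with quantile normalization (-0.36, adjusted p = 0.101) or median centring (-0.084, adjusted p = 0.754). Of 24 measured further Purkinje cell genes 5 were higher and 10 lower, with a median of -0.36. As means over probe sets 2 were higher and 13 lower, beside the same shares of 12.5% and 29% of all genes. Dner, a Notch ligand of Purkinje cells, was 3.03-fold higher (adjusted p = 1.07e-09) on 1 of its 2 probe sets. Gad1, an enzyme of GABA synthesis, was 2.43-fold higher at the brighter of 2 probe sets and lower on the other. Kcnma1, a calcium-activated potassium channel, was 5.23-fold lower with 4 of 5 probe sets lower, and Pvalb, the calcium buffer parvalbumin, was 4.67-fold lower on its only probe set. The Purkinje cell list gave 8 higher and 5 lower after median centring, against 1 and 16 after spike-in scaling. The granule cell list gave 8 and 1 after median centring. After median centring 39.0% of all genes were higher and 11.4% lower. Of 12 measured genes of Bergmann glia and other cerebellar cells 4 were higher and 4 lower. Tfap2a, a transcription factor of molecular layer interneurons, was 2.87-fold higher and Lgi2, a secreted synaptic protein, 2.24-fold higher, each with another probe set lower. Hopx, a marker of Bergmann glia, was 3.98-fold lower with both probe sets lower, and Slc6a5, the glycine transporter of cerebellar interneurons, 3.78-fold lower with 1 of 2.

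Partners of the cerebellins gave calls in both directions. Of 11 measured, 5 were higher and 2 lower, with a median of 0.68, but as means over each gene's probe sets 1 was higher and 4 lower. Over all genes 21.7% were higher and 21.7% lower, and as such means 12.5% and 29%. Cbln4, a cerebellin of other brain regions, was 2.69-fold higher (adjusted p = 1.76e-08), and Cbln2, another, 2.71-fold lower (adjusted p = 9.4e-07), each on its only probe set. Neo1, neogenin, was 4.13-fold higher at the brightest of 5 probe sets with 2 higher and 1 lower, and Nptx1, a neuronal pentraxin, was 1.84-fold lower on both. Nrxn3, a neurexin, was 2.31-fold higher at its brightest probe set, but the other 4 were lower and the mean of all 5 was -0.72 (adjusted p = 0.000185). Nrxn2 had a difference of 0.02 (adjusted p = 0.957).

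Around Itpr1, itself not analysed, 22 genes of inositol trisphosphate receptor signalling were measured, of which 5 were higher and 7 lower, with a median of -0.14. Median centring gave 8 and 2 and spike-in scaling 0 and 15. Over all genes 21.7% were higher and 21.7% lower as deposited. The shares were 39.0% and 11.4% with median centring and 5.32% and 55.7% with spike-in scaling. As means over each gene's probe sets 0 were higher and 13 lower (limma), where 12.5% of all genes were higher and 29% lower as such means. Itpr2, a second receptor of the family, was 1.67-fold lower on its brightest probe set (adjusted p = 0.00580), with 1 of its 6 probe sets higher and 1 lower, and did not pass with quantile normalization or median centring. Itpr3 had a difference of -0.15 (adjusted p = 0.620), but its mean was below the dim control probe sets in both groups, so nothing about Itpr3 can be read from it. Plcb4, the phospholipase C of Purkinje cells, had a difference of -0.10 at its brightest probe set (adjusted p = 0.728), with 1 of its 5 probe sets higher and 3 lower. It was lower as a mean over them (-1.01, adjusted p = 9.94e-06) and with spike-in scaling (-1.05, adjusted p = 0.00181). Ryr2, a calcium release channel, was 3.41-fold lower at its brightest probe set, with both probe sets lower, and Itpka, an inositol trisphosphate kinase, 3.37-fold lower. Homer1, a postsynaptic scaffold protein that binds the inositol trisphosphate receptor, was 2.00-fold higher at the brightest of 6 probe sets, with 2 higher and 3 lower, and Ryr3, another release channel, was 1.79-fold higher with 1 of 3 higher and 1 lower. Of 11 measured calcium binding relatives of Calb1, 2 were higher and 8 lower, with a median of -0.81. Among them Ncs1, neuronal calcium sensor, was 18.9-fold lower with its 3 probe sets lower. Its IP mean of 6.09 on the log2 scale lay close to the dim control probe sets (6.03), so the size of this fold is uncertain. Vsnl1, a visinin-like protein, was 2.50-fold higher with both probe sets higher. Hpca, hippocalcin, was 2.96-fold higher at its brighter probe set and lower on the other, and Cabp1, a calmodulin relative, was lower (adjusted p = 1.8e-06), from a WB mean of 8.14 on the log2 scale to an IP mean of 5.56, below the dim control probe sets.

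Of 15 carbonic anhydrases besides Car8, 4 were higher and 2 lower, where 21.7% of all genes were higher and 21.7% lower. Car7, a cytosolic enzyme of neurons, was 5.35-fold higher on 1 of its 3 probe sets. Car10, like Car8 without catalytic activity, was 2.91-fold higher on its brightest probe set while its other probe set was lower, and Car2, an active enzyme of oligodendrocytes, was 1.76-fold lower. Car4, a membrane-bound enzyme, was 1.51-fold lower at its brighter probe set, with both lower. Of 14 relatives and partners of Zic and Neurod1, 4 were higher and 1 lower. Neurod6, a cortical member of the Neurod1 family, was 2.17-fold higher (adjusted p = 1.7e-05). Atoh1, the factor of granule cell precursors, was higher (adjusted p = 0.0215), with a WB mean of 5.46 on the log2 scale, below the dim control probe sets (6.03), and an IP mean of 6.52. Its call was lost with spike-in scaling (adjusted p = 0.402) and without IP replicates 2, 5, 6 and 8 (adjusted p = 0.139). Gli3, a zinc finger factor of Hedgehog signalling, was 1.90-fold lower (adjusted p = 0.0393) on 1 of 3 probe sets, a call lost with quantile normalization (adjusted p = 0.189), median centring (0.245), as a mean over probe sets (-0.25, adjusted p = 0.440) and without those 4 IP arrays (0.177). Of 15 genes around Ppp1r17, 4 were higher and 4 lower, and the catalytic subunits of protein phosphatase 1 split, with Ppp1cb 2.64-fold higher and Ppp1ca 10.6-fold lower. Ppp1cc was 2.36-fold higher at the brighter of 2 probe sets and lower on the other. Ppp1r1b, the phosphatase inhibitor DARPP-32 of the striatum, was 6.05-fold lower. Prkg1, the kinase of Ppp1r17, had a difference of 0.22 (adjusted p = 0.388). Of 15 G protein partners of Pcp2, 5 were higher and 5 lower. Gpsm1, which shares the G protein binding motif of Pcp2, was 6.21-fold higher on its brightest probe set with another probe set lower, whereas Gnao1, the Go alpha subunit, was 1.91-fold lower. Gnai1, a Gi alpha subunit, was 2.45-fold higher with 1 of 3 probe sets higher and 1 lower. Gnaz, the Gz alpha subunit, was 9.54-fold lower on its brighter probe set, with both lower, and Kcnj9, a G protein-gated potassium channel, was 2.45-fold lower on 1 of its 4 probe sets, with a mean over them of -0.25 that did not pass (adjusted p = 0.254). With spike-in scaling the counts were 2 higher and 9 lower for the carbonic anhydrases, 0 and 6 for the Zic and Neurod1 list, 1 and 9 around Ppp1r17 and 2 and 8 for the G protein partners. Over all genes 5.32% were higher and 55.7% lower with this scaling.

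Of the 42 named genes of these lists that were called, 10 did not pass with spike-in scaling (Gad1, Tfap2a, Lgi2, Cbln4, Nrxn3, Homer1, Ryr3, Neurod6, Atoh1 and Ppp1cc). As means over probe sets 11 did not pass (Tfap2a, Lgi2, Neo1, Ryr3, Itpr2, Car10, Gli3, Ppp1cc, Gpsm1, Kcnj9 and Hpca). Rbfox3 (-0.72), Gad1 (-1.02), Nrxn3 (-0.72) and Homer1 (-0.36) were called lower as means instead of higher (limma adjusted p at most 0.0152). Quantile normalization lost 3 calls (Calb2, Itpr2 and Gli3). Median centring lost 6 calls (Calb2, Itpr2, Car2, Car4, Gli3 and Gnao1), and the omission of IP replicates 2, 5, 6 and 8 lost 3 (Car4, Atoh1 and Gli3).

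Markers of other cells were counted the same way, beside 21.7% of all genes higher and 21.7% lower. Hypothalamic genes gave 1 higher and 5 lower of 11, hippocampal neurons 2 and 3 of 10, astrocytes 3 and 4 of 10, oligodendrocytes 3 and 3 of 9, microglia 2 and 4 of 10, red blood cells 0 and 3 of 5, and endothelium and meninges 0 and 8 of 12. The hypothalamic list gave 1 and 1 with quantile normalization and with median centring. The summed intensity of the 17 further granule cell genes was 28729 to 60646 in IP and 15854 to 19493 in WB. That of the 24 further Purkinje cell genes was 80340.1 to 138370 in IP and 57177 to 68363 in WB, so that both sums were higher in every IP array although more Purkinje cell genes were lower than higher. A sum of intensities is weighted to its brighter probe sets. For Dner and Gad1, both called higher, the IP means were 15.2 and 13.8 on the log2 scale. All sums were formed on the deposited scaling alone. The sums were also higher in every IP array for astrocytes (42260.0 to 71628 against 29171 to 38737), oligodendrocytes (52674 to 108067 against 37982 to 52460), microglia (8519.9 to 14851 against 4421 to 6753) and hypothalamic genes (12154 to 27145 against 5797 to 9076). The sums of endothelium and meninges were 4257 to 7785 in IP and 7433 to 8938 in WB, those of other cerebellar cells 19414 to 26928 and 20167 to 25405, and those of hippocampal neurons 8687 to 12674 and 8127 to 9805, each overlapping between groups. For red blood cells the sum was 450.0 to 1459 in IP and 5179.8 to 16314 in WB. Their part in the results was not tested.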

How the data were processed

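The deposited values were intensities on a linear scale for 45101 probe sets on 18 arrays, and the submitters' processing notes name MAS5 without a version. Each array had a 2% trimmed mean of 500. Detection calls were not used here. Here the log2 of intensity plus 16 was taken. The 64 array controls were left out, and 45037 probe sets were fitted with limma 3.58.1 in R 4.3.3 (lmFit and eBayes with an intensity trend, adjusted p 0.05). Gene symbols came from the platform annotation, with 34945 probe sets of 1 symbol, 932 of several and 9160 of none listed. By Entrez ID 34741 were matched to a reference gene table and 0 renamed. Log ratios were tested by exact permutation in Python 3.11.15. The procedures were tested on simulated data. The members and the 17 gene lists were chosen with earlier results of these data known. All members were named, and from the granule, Purkinje, other cerebellar and pathway lists up to 2 rising and 2 falling genes past the threshold, by size of change, and direct partners of members were eligible. Alternatives were other pseudocounts, scalings, brightness filter, trend, array weights, replicate block, omitted arrays and means over probe sets. Leaving out IP replicates 2, 5, 6 and 8 together, and the alternatives for gene lists, were chosen after seeing the data. Same-numbered IP and WB arrays did not deviate together (correlations from -0.05 to 0.08).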

Additional observations from a re-analysis of the deposited data

Results flagged for a closer look

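Among the 42 sets of 9 arrays (21 probe sets in each group), 4 had an array far from the other 8 by Dixon's ratio, its gap to the nearest array divided by the whole range of the group (critical value 0.493). Chance gives such a gap in about 1 in 20 sets. IP replicate 5 was the array in 3 of them. It was low on 1455445_at of Cbln3 (intensity 395, ratio 0.667), high on 1417504_at of Calb1 (7628, ratio 0.496) and low on 1456934_at of Calb1 (879, ratio 0.509). WB replicate 4 was low on 1456934_at of Calb1 (742, ratio 0.598). Without IP replicate 5 the differences of these 3 probe sets kept their direction and side of the threshold, but that of 1417504_at of Calb1 went from 0.23 to 0.11.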

How the results depend on the processing

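Of 210 differences of the 21 probe sets recomputed under 10 alternatives, 178 kept their direction and side of the threshold, among them all 21 with pseudocounts of 1 and 64, without an intensity trend and with the brightness filter. The exceptions under array weights, the replicate block and the omission of 4 IP arrays were gains. Scaling on the hybridization controls turned 1423286_at (-0.37) and 1423287_at (-0.53) of Cbln1, 1426413_at of Neurod1 (-0.62), 1427482_a_at (-0.89) and 1424958_at (-0.49) of Car8, and 1417504_at (-0.73), 1448738_at (-0.67) and 1458836_at (-0.23) of Calb1. Quantile normalization turned 1427482_a_at of Car8 (-0.38) and 1417504_at of Calb1 (-0.21). Counts of higher probe sets were 15 with median centring and 3 with the hybridization controls, where 7 were lower. At brightest probe sets 3 genes were higher and 4 lower with the hybridization controls, and 2 lower with quantile normalization. Fits that left out 1 array gave 9 to 11 higher and 4 to 5 lower probe sets, and 1 to 2 lower genes, 2 without IP replicate 1 or 4. With the replicate block 10 probe sets were higher and 4 lower; the labels do not say whether equal numbers mark a pair, and 2 of 9 IP arrays correlated best with their own number. The ratio of 1417504_at to 1448738_at of Calb1 ranged from -0.24 to 0.13 over fits without 1 array, and was -0.53 without IP replicates 2, 5, 6 and 8, where that of 1423286_at to 1423287_at of Cbln1 was -0.37. Over the 205 list genes 51 were higher and 69 lower, but 79 and 39 with median centring, 20 and 125 with the hybridization controls, and 23 higher with means over probe sets. The shares of all genes were 21.7% and 21.7%, 39.0% and 11.4%, 5.32% and 55.7%, and 12.5% higher, in the same order. Means over probe sets turned Cbln1 (-0.25), Rbfox3 (-0.72), Gad1 (-1.02), Lgi2 (-0.14), Neo1 (-0.17), Nrxn2 (-0.60), Nrxn3 (-0.72), Homer1 (-0.36), Ryr3 (-0.35), Ppp1cc (-0.25) and Prkg1 (-0.72). The hybridization controls turned Nrxn2 (-0.93), Ryr3 (-0.10) and Prkg1 (-0.70), quantile normalization Itpr3 (0.24), median centring Itpr3 (0.28) and Plcb4 (0.33), and the omission of 4 IP arrays Plcb4 (0.051) and Nrxn2 (-0.028). The cause was not tested. Low signal limits 1419084_a_at and 1424944_at of Pcp2, 1458836_at of Calb1, Itpr3, Atoh1, Cabp1 and Ncs1.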
